A study of Mus musculus with 8 samples.

Results

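The genes described here build the hair shaft and its inner root sheath: the hair keratins, the keratin-associated proteins (Krtap genes) and genes of the hair matrix. They were chosen by symbol, as every gene whose symbol begins with Krtap together with a list of 34 other follicle genes found in the tables. This gave 92 of the 55488 gene identifiers, 58 of them Krtap genes, and 1 further gene of the list was not analysed here. No measured value was used as a cut, though earlier results of these data were known when the genes were chosen. The series asked how loss of peripheral serotonin synthesis affects skin. It compared bulk RNA-seq of dorsal skin from wild-type mice with that from Tph1 knockout mice, both 3 months old, with 4 libraries per genotype. Tph1 encodes the tryptophan hydroxylase that makes serotonin outside the brain. The labels give no strain, sex, litter, hair cycle stage, biopsy site along the back, or type of knockout allele. Whether the 8 libraries are 8 mice is not stated either, and a p-value here reflects only how far the libraries of a genotype scatter.

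A hair follicle cycles between growth (anagen), regression (catagen) and rest (telogen). In anagen, matrix keratinocytes in the bulb divide and move up into concentric layers: the companion layer, the inner root sheath that moulds the hair, and the shaft with its cuticle, cortex and medulla. Each layer makes its own keratins. In the shaft these are bound together by keratin-associated proteins rich in cysteine or in glycine and tyrosine, and in the inner root sheath trichohyalin holds them. Shaft and inner root sheath keratins are made in growing follicles, and transcription factors such as Hoxc13, Foxn1, Msx2, Dlx3 and Lef1 act upstream in the matrix.

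Library totals ran from 20.5 M to 24.7 M expected counts, and 3 counts, the limit that a count of 0 allows, corresponded to between 0.122 and 0.146 CPM (counts scaled to library size), covering counting error only. Tph1 had 18, 0, 27 and 11 counts in wild type 1 to 4 and 0 in each of the 4 knockout libraries, so this gene does not tell wild type 2 from the knockout libraries. Epidermal keratinocyte markers (Krt5, Krt14, Krt1, Krt10, Lor and Flg) summed to 8386 to 19737 TPM (RSEM's transcript level, corrected for gene length and library size), and 6 skeletal muscle markers summed to 9803 to 60757 TPM, so every library also held muscle RNA. Knockout 3 stood apart from the other 7 libraries in most of the keratin and Krtap genes described below, though not in most regulators. Log2 fold changes of members are therefore given with and without it. In bulk RNA, fewer cells of a type and less RNA per cell cannot be told apart.

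The start sites of 4 members are printed because these genes show the patterns to which the values below return: an inner root sheath keratin, a cortex keratin and a Krtap gene that were high in knockout 3, and a companion layer keratin that was not. Each window is the RefSeq promoter of 300 bases, 250 before and 50 after the start, on build GRCm38.p6 and written 5′ to 3′ on the gene's strand. Capitals mark matches on either strand to TATAAA, the TATA box letters, and to CTTTGAA, a core of the Lef1/TCF motif. Krt71 (ENSMUSG00000051879) lies on the minus strand, with its window at chr15:101743048-101743347. Krt34 (ENSMUSG00000043485) is on the minus strand at chr11:100041505-100041804. Krtap8-1 (ENSMUSG00000059632) is on the minus strand at chr16:89487903-89488202. Krt75 (ENSMUSG00000022986) is on the minus strand at chr15:101573855-101574154.
Krt71: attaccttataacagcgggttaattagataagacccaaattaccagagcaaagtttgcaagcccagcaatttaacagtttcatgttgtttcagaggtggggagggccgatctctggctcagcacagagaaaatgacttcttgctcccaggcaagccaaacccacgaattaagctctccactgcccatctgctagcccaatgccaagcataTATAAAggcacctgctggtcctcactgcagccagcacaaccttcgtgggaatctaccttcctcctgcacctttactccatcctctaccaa
Krt34: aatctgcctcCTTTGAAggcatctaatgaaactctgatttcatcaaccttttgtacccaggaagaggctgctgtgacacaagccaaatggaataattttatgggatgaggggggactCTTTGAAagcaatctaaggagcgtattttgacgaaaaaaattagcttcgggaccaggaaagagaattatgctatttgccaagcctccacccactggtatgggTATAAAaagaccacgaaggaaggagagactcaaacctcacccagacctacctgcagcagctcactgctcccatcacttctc
Krtap8-1: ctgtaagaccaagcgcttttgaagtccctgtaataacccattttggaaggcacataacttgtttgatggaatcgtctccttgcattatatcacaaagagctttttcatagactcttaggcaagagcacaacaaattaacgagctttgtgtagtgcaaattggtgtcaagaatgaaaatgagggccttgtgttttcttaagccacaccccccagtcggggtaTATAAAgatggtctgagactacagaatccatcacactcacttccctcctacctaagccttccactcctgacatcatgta
Krt75: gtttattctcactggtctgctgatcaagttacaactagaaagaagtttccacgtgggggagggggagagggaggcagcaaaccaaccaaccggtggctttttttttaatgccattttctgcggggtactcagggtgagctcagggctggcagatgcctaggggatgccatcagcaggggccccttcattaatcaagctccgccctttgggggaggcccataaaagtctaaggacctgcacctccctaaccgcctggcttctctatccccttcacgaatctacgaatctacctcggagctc
TATAAA began at −40 in Krt71, −31 in Krt34 and −29 in Krtap8-1, counted from the start site, and CTTTGAA occurred 2 times in Krt34, first at −240. Krt75 held neither run of letters.

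Across the set, 75 of 92 members matched a promoter entry, and 57 of them (76.0%) held TATAAA on either strand, against 15.7% of 27025 genes with an entry. On the sense strand and starting between −40 and −20, it was present in 40 members (53.3%) against 2.41% of all genes. The layers differed in both measures. Anywhere in the window and on either strand, all 7 inner root sheath keratins and 15 of 16 ultra-high sulfur Krtap genes held TATAAA. None of the 3 genes of the trichohyalin group did, and 1 of 4 matrix regulators (Lef1, at −231 on the opposite strand). On the sense strand between −40 and −20 the numbers were 5 of 7, 12 of 16, 0 of 3 and 0 of 4. CTTTGAA occurred in 15 members (20%) against 5.93% of all genes, in all 3 cortex keratins with an entry and in 7 of 15 high sulfur Krtap genes, but in 0 of 16 ultra-high sulfur ones. Neighbouring Krtap genes are related copies, so these counts are not independent, and a match is a description of letters and not of a bound site.

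The members lie in a few clusters, read from GENCODE M21 on GRCm38. Chromosome 11 holds 36 members, 23 of them Krtap genes beside the type I hair keratins. Chromosome 16 holds 25, all of them Krtap genes, between 88610705 and 89571183. Chromosome 15 holds 10, between 101459061 and 102928814, among them the type II keratins and Hoxc13. None lies within 20 Mb of Tph1.

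Between genotypes, no member passed the test. A total of 32 members, 5 of them Krtap genes, had enough counts to be tested, and 0 were called at an adjusted p under 0.05 (edgeR quasi-likelihood F test, Benjamini-Hochberg over all genes), against 0.651% of the 16908 genes tested. The lowest adjusted p among them was 0.121, for Krt26. At an unadjusted p under 0.05 there were 12 of 32 (37.5%), against 17.6% of all genes, and DESeq2's Wald test called 3 members (Crym, Krt26 and Prr9) where it called 994 genes in all. DESeq2 gave no adjusted p for some members, among them Krt33a, Krt83, Krtap7-1, Krt71, Krt25 and Krt27, and so could not call these. Of the 32, 30 had a positive log2 fold change (knockout minus wild type), with a median of 2.32 against 0.03 over all tested genes. That lean rested on 1 library: without knockout 3, 20 of 32 were positive and the median was 0.08, and without knockout 3 and wild type 2 together, 13 of 30 were positive and the median was −0.14. The CPM values of the genotypes overlapped in all 32, while 11% of all tested genes had no overlap.

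The libraries were then ordered by the summed TPM of the 92 genes, a level and not a staging of the follicles. Knockout 3 came first with 4486 TPM, followed by knockout 2 with 398 TPM and wild type 3 with 345 TPM. The other 5 ran from 178 TPM in wild type 2 through 141 in wild type 4, 136 in wild type 1 and 130 in knockout 4 to 100 in knockout 1. Knockout 3 was thus 11.3-fold above the next library, while both genotypes contributed to the top 3 and to the bottom 3 places. With the Krtap genes left out, wild type 3 (274 TPM) passed knockout 2 (267 TPM). The genes took 0.442% of all counts in knockout 3 and between 0.0203% and 0.0577% in the others.

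Knockout 3 held the highest value in 87 of the 92 genes. It carried more than 90% of the TPM summed over 8 libraries in 48 genes and more than 50% in 78. The exceptions with counts were Krt75, Krt32, Hoxc13 and Krtap20-2, and Krtap13 had no count anywhere. Knockout 2 was second in 56 of these genes, wild type 3 in 20 and another library in 7. The number of genes at 0 counts ran the opposite way: 2 in knockout 3, 10 in knockout 2 and 19 in wild type 3, then 29 in knockout 4, 36 in wild type 4, 55 in knockout 1, 58 in wild type 2 and 59 in wild type 1. In the authors' deposited normalized matrix, which lists 45 of the 92 genes, 40 were highest in knockout 3, the others being Krt75, Krt32, Hoxc13, Msx1 and Shh. Wild type 1, wild type 2 and knockout 1, which span both genotypes, lacked detectable counts for most of the set.

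**Figure D1:**
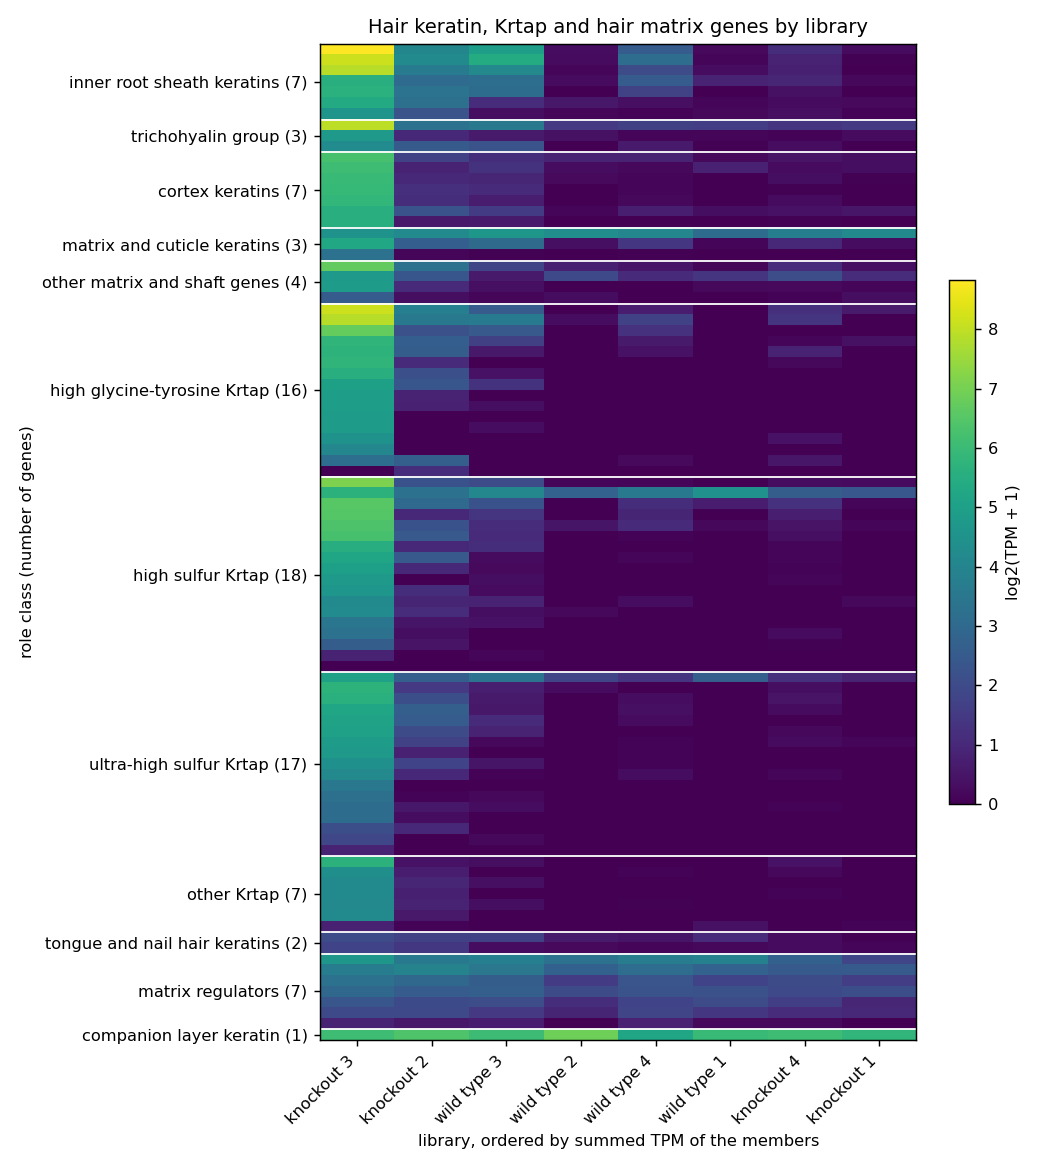
Level of each of the 92 genes (rows, grouped by role with the number of genes) in the 8 libraries (columns, ordered by the summed TPM of the set), as log2(TPM + 1) in colour. Knockout 3 is bright in almost every row, knockout 2 and wild type 3 are intermediate in the inner root sheath and some Krtap rows, and the matrix regulators and Krt75 are of similar colour in all columns.

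The inner root sheath keratins differed widely between libraries of both genotypes. Krt25 to Krt28 (type I) and Krt71 to Krt73 (type II) pair into the filaments of this sheath, and their summed level was 1.55, 1.28, 107 and 23.5 TPM in wild type 1 to 4 and 0.58, 74.1, 1134 and 4.51 TPM in knockout 1 to 4. Knockout 3 was 10.6-fold above wild type 3, which was itself above knockout 2. Krt71, whose mutations give curly coats in several mammals, stood at 0.16, 0.23, 30.3 and 5 TPM in wild type and 0.19, 15.7, 455 and 1.22 TPM in knockout. Both groups thus held libraries near 0 and libraries well above it, and they overlapped. The log2 fold change was 3.47 ± 2.11 (SE) at an adjusted p of 0.414 in edgeR and −0.60 without knockout 3. Its partner Krt25 read 0.09, 0.19, 42.7 and 7.96 TPM in wild type and 0.03, 17.5, 286 and 0.82 TPM in knockout. Here wild type 3 exceeded every knockout library but knockout 3, and the log2 fold change of 2.33 ± 2.02 (SE) at an adjusted p of 0.568 in edgeR became −1.02 without that library. Krt27 was similar, at 0.24, 0.12, 16.96 and 3.06 TPM in wild type and 0, 11.9, 235 and 0.73 TPM in knockout.

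Krt26 had the largest log2 fold change of all tested members, 5.35 ± 1.42 (SE) at an adjusted p of 0.121 in edgeR. Its levels were 0.14, 0.08, 0.25 and 0.07 TPM in wild type and 0.06, 3.83, 22.8 and 0.28 TPM in knockout. Knockout 2, knockout 3 and, narrowly, knockout 4 lay above every wild-type library, and knockout 1 lay narrowly below them. The counts were 6, 5, 10 and 4 in wild type and 4, 188, 821 and 17 in knockout. The order among the wild-type libraries, knockout 1 and knockout 4 thus rests on few counts. Unlike the genes above, Krt26 kept a positive log2 fold change whichever library was left out, from 3.43 (without knockout 3) to 5.75. Without knockout 3, most of the knockout counts came from knockout 2. Krt72, a keratin of the inner root sheath cuticle, was likewise highest in knockout 3 and then in knockout 2. It had 0.10, 0.47, 1.17 and 0.28 TPM in wild type and 0.17, 8.49, 41.6 and 0.19 TPM in knockout. Its levels in knockout 1 and knockout 4 lay inside the wild-type range. The 7 keratins therefore did not share 1 pattern across libraries. Relative to knockout 3, Krt26 and Krt72 reached 16.8% and 20.4% in knockout 2 but 1.10% and 2.81% in wild type 3. Krt25, Krt28 and Krt73 reached 14.9%, 18% and 15.97% in wild type 3, and 6.12%, 16.3% and 19.1% in knockout 2. Krt28 and Krt73 thus differed from Krt26 and Krt72 in wild type 3 but were about as high in knockout 2. These are single libraries, and the differences between them have no replicate.

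Trichohyalin and its partners were, like the summed sheath keratins, highest in knockout 3, wild type 3 and knockout 2. Wild type 4 differed. Its sheath keratins summed to 23.5 TPM against 1.55 TPM in wild type 1, but its trichohyalin group to 2.86 TPM against 2.22 TPM. Tchh, which encodes the protein that hardens the inner root sheath and medulla, was at 2.07, 1.78, 10.96 and 2.18 TPM in wild type and 1.74, 8.95, 249 and 1.53 TPM in knockout. In the 5 libraries low for hair genes it stayed between 1.53 and 2.18 TPM. Its log2 fold change was 3.72 ± 1.57 (SE) at an adjusted p of 0.267 in edgeR and 0.03 without knockout 3. Padi3, the peptidylarginine deiminase that modifies trichohyalin, read 0.04, 0.02, 3.79 and 0.57 TPM in wild type and 0, 4.62, 18.3 and 0.22 TPM in knockout. It had the smallest gap between knockout 3 and the next library in this group, 3.95-fold, against 22.7-fold for Tchh. Tchhl1, a gene of the same family, was highest at 25.8 TPM in knockout 3 and 1.04 TPM or lower elsewhere.

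The cortex keratins were found almost entirely in knockout 3. Krt31, Krt33a, Krt33b and Krt34 (type I) and Krt81, Krt83 and Krt86 (type II) form the bulk of the shaft, and together they read 1.22, 1.35, 7.93 and 1.98 TPM in wild type and 1.0, 10.8, 413 and 1.45 TPM in knockout. The gap between knockout 3 and the next library was 38.2-fold. Krt33a, the most abundant, had 0.18, 0.83, 1.25 and 0.81 TPM in wild type and 0.26, 2.23, 75.6 and 0.37 TPM in knockout. Outside knockout 3 the 2 genotypes covered the same low range, and the log2 fold change was 4.51 ± 1.68 (SE) at an adjusted p of 0.222 in edgeR, or 0.46 without that library. Krt83 gave 0.77, 0.23, 1.47 and 0.13 TPM in wild type and 0.27, 0.81, 67.4 and 0.20 TPM in knockout, and its log2 fold change of 4.86 ± 1.88 (SE) at an adjusted p of 0.233 in edgeR became −0.29 without knockout 3. Krt34, whose window is printed above, was at 56.1 TPM in knockout 3, at 1.21 and 0.63 TPM in knockout 2 and wild type 3, and at 0 in wild type 1, wild type 2 and knockout 1. It was 1 of the 4 cortex keratins with too few counts to be tested. All 7 held counts that were not whole in at least 1 library, so the authors' quantification divided some reads among related genes, and the split between single cortex keratins is less certain than their sum.

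**Figure D2:**
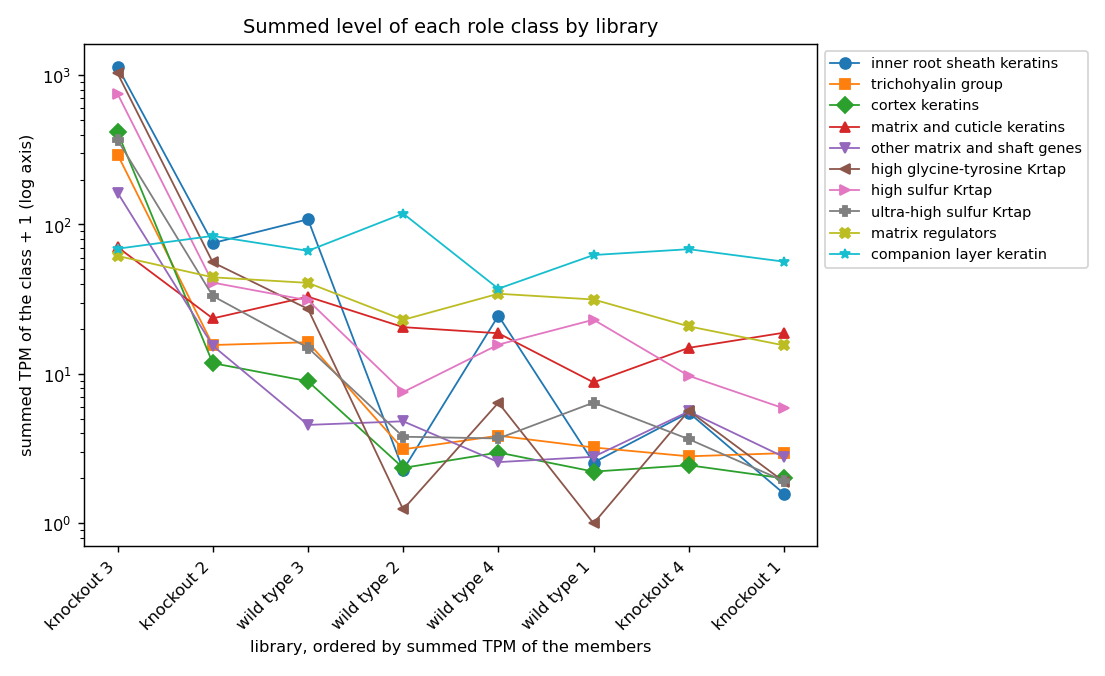
Summed TPM + 1 (log axis) of 10 role classes in the 8 libraries, ordered by the summed TPM of the set, with 1 line per class joining its points for the eye. From knockout 3 to the next library the cortex keratins drop 38.2-fold and the inner root sheath keratins 10.6-fold, while the matrix regulators drop 1.40-fold and Krt75 does not drop.

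Set against one another, root sheath and cortex differed between libraries. In wild type 3 the inner root sheath keratins reached 9.46% of their summed level in knockout 3 and the cortex keratins 1.92%. In knockout 2 the corresponding values were 6.53% and 2.62%. Single genes passed 10% of their knockout 3 level in 3 of 7 inner root sheath keratins in wild type 3 and in 4 of 7 in knockout 2, but in 0 of 7 cortex keratins in either. As a share of the counts of both classes, inner root sheath keratins made up 94.2% in wild type 3 (95% Wilson interval 93.3 to 94.9, 3525 counts), 93.6% in wild type 4 (91.8 to 95.03, 874 counts) and 89.0% in knockout 2 (87.8 to 90.1, 2812 counts). Knockout 3 gave 76.2% (75.8 to 76.6, 40429 counts). Its share was thus below that of the other 3 libraries with the most such counts by more than counting error, which is all that the intervals cover. Knockout 4 gave 78.6% (72.3 to 83.9, 192 counts). Wild type 1, wild type 2 and knockout 1 gave 62.9%, 58.6% and 38% from 70, 70 and 50 counts, with intervals as wide as 25.9 to 51.8.

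**Figure D3:**
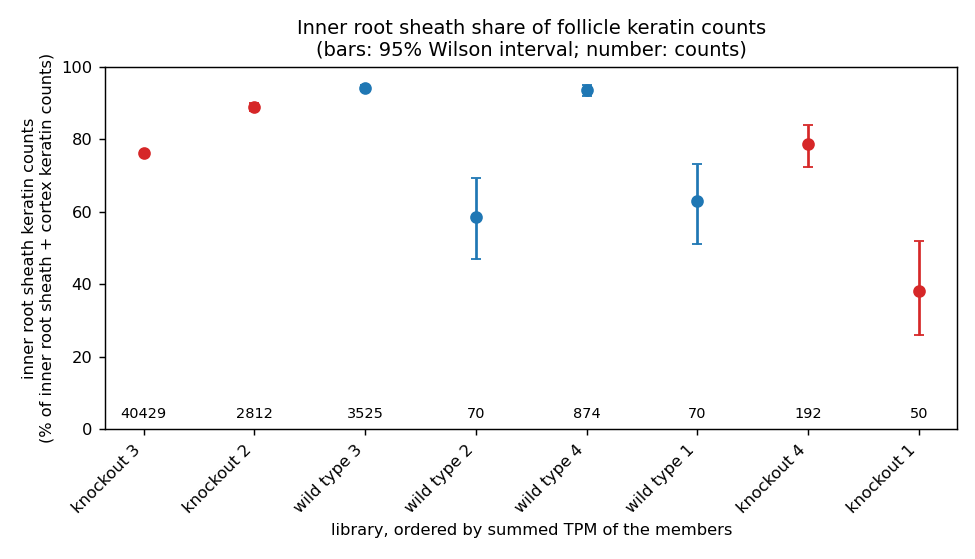
Inner root sheath keratin counts as a percentage of inner root sheath plus cortex keratin counts in each library (points, blue for wild type and red for knockout), with 95% Wilson intervals as bars and the number of counts at the foot. Wild type 3, wild type 4 and knockout 2 lie between 89.0% and 94.2%, knockout 3 lies at 76.2%, and the 3 libraries with 70 counts or fewer have wide intervals.

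The keratins of the matrix and cuticle split. Krt35, made in the matrix and lower shaft, followed the other hair keratins, at 0.10, 0.29, 7.26 and 1.61 TPM in wild type and 0.22, 5.30, 38.2 and 1.03 TPM in knockout. It reached 19% of its knockout 3 level in wild type 3 and 13.9% in knockout 2, closer to the inner root sheath keratins than to those of the cortex. Krt82, of the shaft cuticle, was at 9.14 TPM in knockout 3 and at 0.08 TPM or lower in all other libraries. Krt32, also a cuticle keratin, did not follow either: it had 7.68, 19.3, 24.6 and 16.1 TPM in wild type and 17.7, 17.1, 22.2 and 12.9 TPM in knockout. Its highest value was in wild type 3, and its means were 16.9 ± 7.08 and 17.5 ± 3.79 TPM (SD, n = 4), with a log2 fold change of 0.17 ± 0.34 (SE) at an adjusted p of 0.818 in edgeR, or 0.04 without knockout 3. Krt32 overlaps the antisense gene Gm11571, listed at 0.02 to 0.81 TPM, and the library kit does not mark strand, so their reads cannot be told apart. The remaining hair-type keratins, Krt36 and Krt84, known also from tongue and nail, were low everywhere, with the highest values in knockout 3 at 3.05 and 2.46 TPM and in knockout 2 at 2.37 and 1.73 TPM.

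The 4 further genes of the matrix and shaft, with roles outside the keratin filament, had their highest values in knockout 3 and their second highest in knockout 2. Prr9, a proline-rich protein gene, read 0.11, 0.72, 2.60 and 0.44 TPM in wild type and 0.28, 8.94, 103 and 1.15 TPM in knockout, for a log2 fold change of 4.64 ± 1.63 (SE) at an adjusted p of 0.206 in edgeR. Crym, which encodes the thyroid hormone-binding protein mu-crystallin, had 1.52, 2.88, 0.57 and 1.11 TPM in wild type and 1.15, 4.17, 26.2 and 3.23 TPM in knockout. For Crym, 3 of 4 knockout libraries lay above every wild-type library, wild type 3 was the lowest of all 8, and the log2 fold change was 2.37 ± 0.82 (SE) at an adjusted p of 0.2 in edgeR. Without knockout 3 the log2 fold change was 1.89 for Prr9 and 1.02 for Crym. The desmosomal cadherin gene Dsg4 was at 4.98 TPM in knockout 3, and Gprc5d, a receptor gene expressed in the shaft, at 28.1 TPM there and 1.07 TPM or lower elsewhere. The next level of Dsg4, 0.27 TPM, was shared by knockout 2 and knockout 1.

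The Krtap genes coat the shaft keratins, and their 3 protein classes all peaked in knockout 3. Only 5 of the 58 passed the filter on low counts, so what follows is a description of levels. High glycine-tyrosine Krtap genes (families 6, 7, 8 and 19 to 22) summed to 0, 0.24, 26.2 and 5.42 TPM in wild type and 0.90, 54.8, 1026 and 4.67 TPM in knockout. The high sulfur genes (families 1 to 3, 10 to 15, 24, 26 and 27) summed to 22.1, 6.56, 30.1 and 14.7 TPM in wild type and 4.88, 39.8, 748 and 8.71 TPM in knockout. The ultra-high sulfur genes (families 4, 5, 9 and 17) gave 5.43, 2.8, 13.98 and 2.7 TPM in wild type and 0.92, 32.2, 367 and 2.66 TPM in knockout. In each class knockout 2 was second and wild type 3 next, the reverse of their order by summed TPM in the inner root sheath. That contrast depended on the measure. By mean log2(TPM + 1), the inner root sheath keratins also had knockout 2 (3.42) above wild type 3 (3.19). Relative to knockout 3, the ultra-high sulfur genes stood at 8.78% in knockout 2 and 3.81% in wild type 3, the high sulfur genes at 5.33% and 4.02%, and the high glycine-tyrosine genes at 5.34% and 2.56%.

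**Figure D4:**
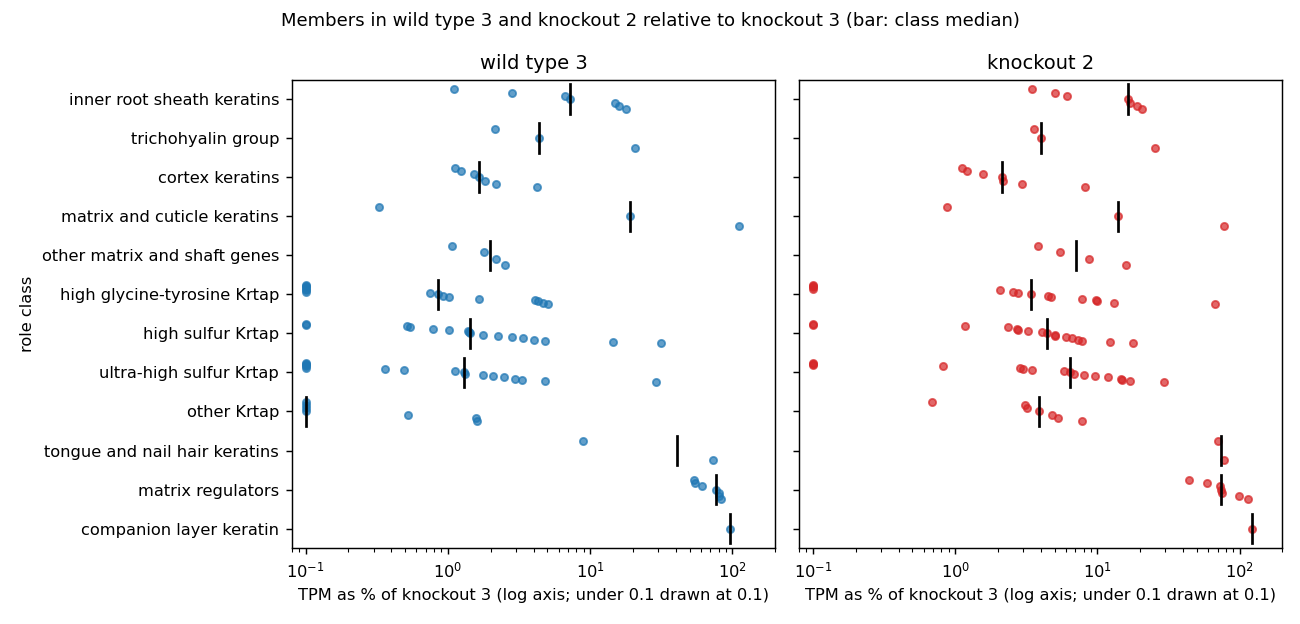
TPM of each gene in wild type 3 (left) and knockout 2 (right) as a percentage of its TPM in knockout 3 (log axis, values under 0.1 drawn at 0.1), 1 point per gene and a bar for the median of its role class. Class medians lie at 7.22% and 16.3% for the inner root sheath keratins, at 1.65% and 2.13% for the cortex keratins, and at 76.8% and 73.6% for the matrix regulators.

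Krtap8-1 and Krtap7-1, of the high glycine-tyrosine class, were the most abundant Krtap genes. Krtap8-1 read 0, 0, 4.79 and 0.59 TPM in wild type and 0.57, 12.9, 288 and 1.28 TPM in knockout. Krtap7-1 gave 0, 0.24, 11.8 and 2.36 TPM in wild type and 0, 11.01, 234 and 1.49 TPM in knockout, with a log2 fold change of 3.81 ± 1.90 (SE) at an adjusted p of 0.330 in edgeR, or 0.25 without knockout 3. In both, knockout 3 was about as far above the next library, 22.2-fold and 19.8-fold. Krtap22-2 was 23.2-fold above the next, at 105 TPM in knockout 3 and 4.53 TPM in wild type 3. The family 19 genes ranged from 16.2 TPM for Krtap19-1 to 53.6 TPM for Krtap19-3 in knockout 3, and Krtap19-1 and Krtap19-9a were at 0 in all other libraries. Krtap6-3 departed from its class: at 5.43 TPM in knockout 2 it reached 67.6% of its 8.03 TPM in knockout 3.

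Among the high sulfur genes, Krtap3-1 had 0, 0.12, 3.07 and 0.11 TPM in wild type and 0.21, 3.67, 135 and 0.24 TPM in knockout. Its neighbour Krtap3-3 gave 0.64, 0, 3.71 and 1.21 TPM in wild type and 0.11, 7.12, 91.9 and 1.40 TPM in knockout, with a log2 fold change of 3.92 ± 1.63 (SE) at an adjusted p of 0.263 in edgeR, or 1.09 without knockout 3. Krtap3-2, of the same family and cluster, behaved differently: it was at 21.3, 5.90, 15.9 and 10.99 TPM in wild type and 4.32, 8.90, 50.3 and 5.07 TPM in knockout. It was present in every library, with at least 78 counts, also where most Krtap genes had none. Its log2 fold change was 0.22 ± 0.66 (SE) at an adjusted p of 0.891 in edgeR and −1.0 without knockout 3. Krtap17-1, of the ultra-high sulfur class, was the other such case, at 5.43, 2.61, 9.25 and 1.57 TPM in wild type and 0.80, 5.44, 32.0 and 1.33 TPM in knockout. Wild type 1, where 59 of the 92 genes had no count, thus held more Krtap3-2 than any other library but knockout 3, and nearly as much Krtap17-1 as knockout 2. The contrast of these 2 genes with the rest was noticed after their values were seen. Counts were not whole in 7 libraries for Krtap3-2, in 7 for Krtap3-3 and in 3 for Krtap3-1. Some of their reads were thus divided among genes, and the contrast between Krtap3-2 and its neighbours is less certain.

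The other ultra-high sulfur genes were close to absent outside 3 libraries. Krtap9-3 had 0, 0.19, 0.67 and 0 TPM in wild type and 0, 1.79, 51.5 and 0.27 TPM in knockout. Krtap4-1 showed 0, 0, 0.54 and 0.23 TPM in wild type and 0, 3.31, 48.0 and 0.37 TPM in knockout. In knockout 2, 5 of the 17 genes of the class passed 10% of their knockout 3 level, and 1 did in wild type 3. Of the families outside these classes, Krtap16-3, Krtap28-10 and Krtap28-13 were at 49.6, 20.2 and 17.6 TPM in knockout 3 and at 0.93 TPM or lower elsewhere. A total of 22 Krtap genes had counts that were not whole in at least 1 library, though no member had another annotated transcript matching it at 95% identity over 80% of its length. Krtap14 and Krtap15 overlap on opposite strands, so their 43.9 and 88.8 TPM in knockout 3 cannot be separated by strand.

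The matrix regulators, upstream of these products, differed far less between libraries. Hoxc13, a homeobox gene that activates hair keratin genes, read 5.84, 5.69, 10.5 and 7.88 TPM in wild type and 4.68, 14.4, 12.5 and 4.68 TPM in knockout. It was highest in knockout 2, followed by knockout 3 and wild type 3, and its log2 fold change was 0.26 ± 0.36 (SE) at an adjusted p of 0.737 in edgeR, or 0.18 without knockout 3. Foxn1, the gene mutated in nude mice, gave 3.60, 3.19, 5.45 and 3.76 TPM in wild type and 3.33, 5, 6.79 and 2.83 TPM in knockout. The same 3 libraries were again on top, but knockout 3 exceeded wild type 3 by 1.25-fold, where the cortex keratins were 38.2-fold above the next library. Msx2, a homeobox gene of the matrix, had 2.41, 1.90, 5.04 and 4.00 TPM in wild type and 2.01, 6.93, 9.16 and 3.09 TPM in knockout, with a log2 fold change of 0.60 ± 0.44 (SE) at an adjusted p of 0.497 in edgeR, or 0.35 without knockout 3.

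Dlx3, a homeobox gene of matrix and epidermis, was at 13.8, 9.10, 13.1 and 11.95 TPM in wild type and 2.58, 10.8, 24.4 and 5.72 TPM in knockout. Knockout 1 and knockout 4 lay below every wild-type library, and knockout 3 above them all. Its log2 fold change was −0.23 ± 0.46 (SE) at an adjusted p of 0.827 in edgeR and −0.81 without knockout 3. Lef1, the Wnt-pathway factor of the matrix, ranged from 1.23 to 3.30 TPM in wild type and 0.94 to 4.09 TPM in knockout. Msx1 ranged from 0.90 to 2.59 TPM and 0.96 to 2.83 TPM. Shh, the ligand made on 1 side of the growing bulb, stayed under 1 TPM, from 0 to 0.77 TPM in wild type and 0.02 to 0.82 TPM in knockout. None of the 7 regulators passed the test, and their log2 fold changes lay between −0.26 for Shh (−0.82 without knockout 3) and 0.60 for Msx2. Summed, they ran from 14.5 TPM in knockout 1 to 60.6 TPM in knockout 3, a 4.17-fold range, with knockout 3 at 1.40-fold over knockout 2. The order of the first 3 libraries, knockout 3, knockout 2 and wild type 3, was that of the Krtap genes.

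**Figure D5:**
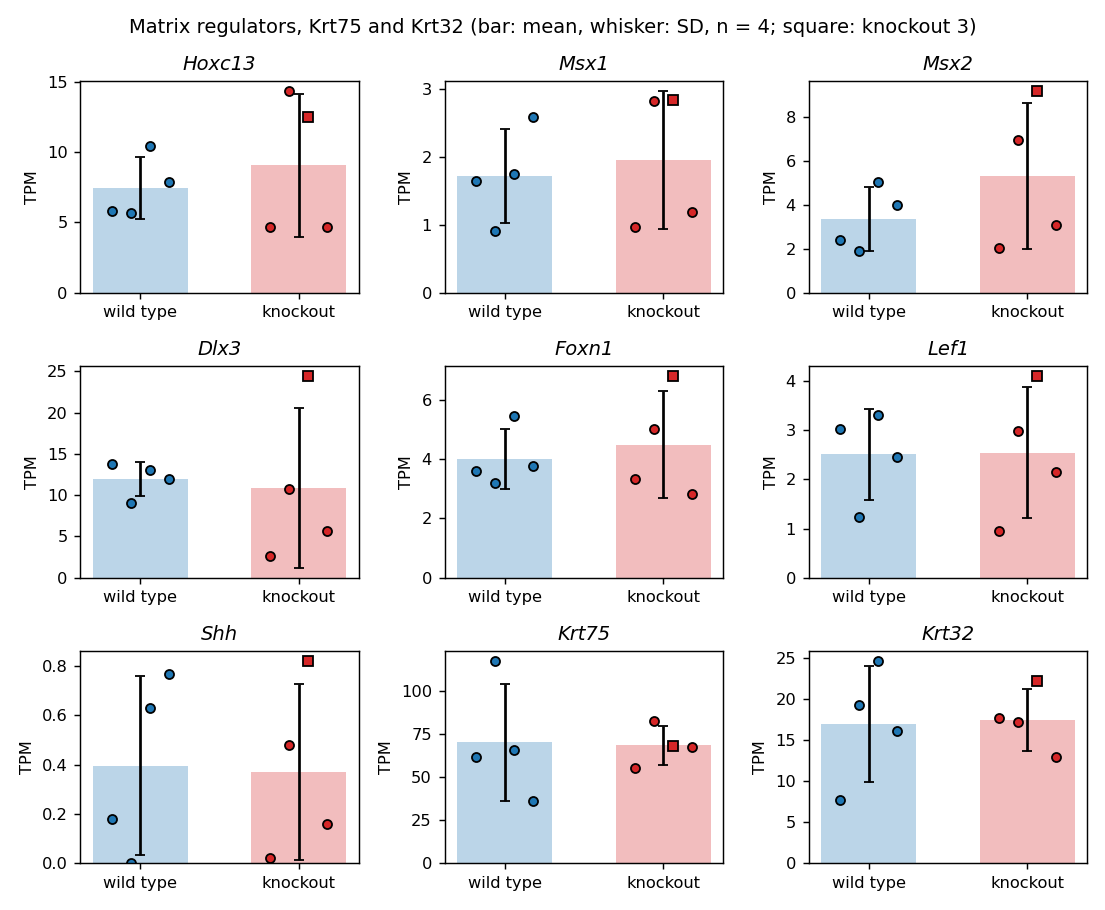
TPM of the 7 matrix regulators, Krt75 and Krt32 in wild type and knockout libraries (points, with a square for knockout 3), with the group mean as a bar from 0 and the SD as a whisker (n = 4 per group). The groups overlap in every panel. Knockout 3 is the highest library for Msx2, Dlx3, Foxn1, Lef1 and Shh, and narrowly for Msx1, and it lies inside the range for Krt75, Krt32 and Hoxc13.

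Krt75, the keratin of the companion layer between outer and inner root sheath, did not share the pattern. It had 61.5, 117, 65.6 and 36.2 TPM in wild type and 55.4, 82.9, 67.9 and 67.3 TPM in knockout. Its highest and lowest libraries were both wild type, knockout 3 was in between, and the means were 70.1 ± 34.0 and 68.4 ± 11.3 TPM (SD, n = 4). The log2 fold change was 0.03 ± 0.29 (SE) at an adjusted p of 0.975 in edgeR, or 0.12 without knockout 3, and it changed sign with total count scaling, to −0.02. Wild type 2, which had 117 TPM of Krt75, had 1.28 TPM of all inner root sheath keratins together. A predicted miRNA gene, Gm44460, lies within Krt75 on the opposite strand, and the kit does not separate them. Gm44460 was listed at 0 to 134 TPM, highest in knockout 3, and Krt75 held counts that were not whole in 7 libraries. The part of this overlap in the level of Krt75 was not tested.

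By class, the difference between genotypes in the mean log2(TPM + 1) of the members was positive throughout and depended on knockout 3 in each class but the companion layer. For the inner root sheath keratins it was 1.33, from 1.37 ± 1.42 in wild type to 2.697 ± 2.96 in knockout (SD, n = 4), and 0.04 without knockout 3. For the cortex keratins it was 1.44 and 0.11 without it, and for the trichohyalin group 1.21 and 0.08. The high glycine-tyrosine, high sulfur and ultra-high sulfur Krtap genes differed by 1.49, 1.15 and 1.12, and by 0.37, 0.16 and 0.25 without it. The 7 matrix regulators differed by 0.03 and, without knockout 3, by −0.21. With all 8 libraries, each of the 12 class differences was smaller than the SD among the 4 knockout libraries, and none was tested as a list.

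Other genes of the follicle were read in the same fit, and only some genes of each list are printed here. At an unadjusted p under 0.05 in edgeR, the share over all tested genes was 17.6%. Of 10 further shaft and sheath genes, edgeR called 0, with 6 at an unadjusted p under 0.05, and DESeq2's Wald test called 2 (Lpar6 and Krt17). Of the 6, S100a3, Vsig8 and Lpar6 were higher in knockout, and Cdsn, Odc1 and Krt17 were lower. In this list 6 genes were highest in knockout 3. S100a3, a calcium-binding protein gene of the shaft cuticle, was the clearest of these, at 195 TPM in knockout 3 against 1.51 to 19.3 TPM elsewhere, and Vsig8 was at 27.4 TPM against 0.14 to 1.72. Of 27 other follicle regulators, edgeR called 0, with 3 at an unadjusted p under 0.05, and DESeq2 called 1 (Ovol1). Of 7 bulge and telogen genes and 6 dermal papilla genes, both tools called 0, with 1 and 2 at an unadjusted p under 0.05 in edgeR. These were Foxc1, and Sox18 and Crabp1, with log2 fold changes of 0.76, 0.64 and −0.49. Among the regulators, Ovol1, a zinc-finger factor of epidermal and hair differentiation, read 20.2 to 37.4 TPM in wild type and 8.09 to 22.4 TPM in knockout, and Wnt10a, a Wnt ligand, 27.9 to 55.6 TPM and 14.9 to 25.3 TPM. The levels of Wnt10a did not overlap between the groups, with an unadjusted p of 0.0313 and an adjusted p of 0.239 (edgeR). By CPM, 11% of all tested genes had no overlap. Of 8 proliferation genes, both tools called 0, with 0 at an unadjusted p under 0.05 in edgeR, 6 were highest in wild type 3, and their summed level in knockout 3 (54.0 TPM) ranked 5 of 8, inside the range of 40.6 to 85.0 TPM of the others.

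Markers of other cells are given here for the whole of each list, whether or not they were high in knockout 3. The 7 melanogenesis genes summed to 70.7 TPM in knockout 3 and 7.89 to 27.9 TPM elsewhere, with 6 of 7 highest in knockout 3, among them Tyrp1 at 16.3 TPM and Pmel at 15.5 TPM. The 5 fibroblast markers summed to 918 TPM in knockout 3, 1292 TPM in wild type 1 and 200 to 359 TPM in the other 6. The epidermal markers summed to 8596 TPM in knockout 3, inside the range of the other knockout libraries, and of their 6 genes Lor was called lower in knockout (−1.47 ± 0.24 on the log2 scale, with SE, and an adjusted p of 0.0379 in edgeR). That call was lost in 7 of the 8 fits that left out 1 library and held without knockout 3, while the log2 fold change stayed between −1.63 and −1.35. DESeq2 called 3 of the 6 (Krt1, Krt10 and Lor). The 6 adipocyte markers summed to 2480 TPM and the muscle markers to 41033 TPM in knockout 3, both inside the range of the other libraries. Of these lists edgeR called 0, with 0 and 1 at an unadjusted p under 0.05, and DESeq2 called Myh1, a muscle myosin. Of 4 tongue papilla markers, 2 were at 0 in all libraries, and the 4 summed to 0.86 TPM in knockout 3 and 0.77 to 1.06 TPM elsewhere. The part of pigment and dermal cells in the level of the hair genes in knockout 3 was not tested.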

How the data were processed

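Bulk RNA-seq of dorsal skin gave 8 libraries, 4 wild type and 4 Tph1 knockout, grouped by the genotype label. Qiagen columns gave the total RNA and the NEBNext Ultra RNA kit the libraries, per the labels' protocols. GRCm38, STAR 2.7.6a, RSEM 1.31, DESeq2 and DESeq are credited to the submitters' processing notes, which give no roles, and Ensembl release 101 to the labels. Each deposited table holds RSEM expected counts, which the authors estimated by dividing reads that match several genes. Its TPM values, per the file headers, are RSEM's length-scaled levels, and the deposited FPKM values were not used. The deposited effective lengths entered 1 alternative. The authors' matrix, a normalized signal, gave the symbols of 45 members and 1 check of the order, and a reference name table gave the other 47 symbols.

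Rounded expected counts entered edgeR 4.0.16 (R 4.3.3): filterByExpr (minimum count 10, minimum total 15), TMM scaling, and a robust quasi-likelihood F test on genotype alone. The adjusted p is Benjamini-Hochberg over all 16908 genes tested, called under 0.05. The script was tested on simulated data. Class levels are the mean log2(TPM + 1), with a pseudocount of 1. The alternatives were DESeq2 1.42.0, other scalings, no low count filter, an effective length offset, another pseudocount, CPM in place of TPM, and leaving out each library.

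Members and lists were chosen with earlier results of these data known. Named genes are the 7 regulators, up to 3 members per class with the highest mean TPM, called members, the 3 largest positive and negative fold changes, and up to 3 tested genes per context list with the smallest p. Genes named beyond these were chosen after their values were seen. Not every gene picked from the context lists is printed. Krtap classes were planned from protein composition. No protein table was used, so family numbers replaced it, a choice made after the data were seen.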

Additional observations from a re-analysis of the deposited data

Results flagged for a closer look

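In each genotype, single libraries were screened for a gap to the nearest of the other 3 that took a larger part of the group's range than Dixon's 95% limit for 4 samples. Of 164 series of values checked, 55 had such a library, and 40 of them were in knockout 3. Many of the genes screened were picked by mean TPM over all libraries or by fold change, which knockout 3 largely sets. The class sums hold the same genes again. These numbers therefore cannot be set against chance. The genes are not independent of one another.

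The class sums in knockout 3 that stood apart from the other knockout libraries were 412.79 TPM for cortex keratins, 1025.54 TPM for high glycine-tyrosine Krtap, 747.78 TPM for high sulfur Krtap, 1134.41 TPM for inner root sheath keratins, 69.55 TPM for matrix and cuticle keratins, 140.21 TPM for other Krtap, 162.2 TPM for other matrix and shaft genes, 292.88 TPM for trichohyalin group and 367.12 TPM for ultra-high sulfur Krtap. Single keratins and other genes of the set gave 75.64 TPM for Krt33a, 67.43 TPM for Krt83, 61.46 TPM for Krt86, 454.89 TPM for Krt71, 286.3 TPM for Krt25, 234.82 TPM for Krt27, 38.22 TPM for Krt35, 9.14 TPM for Krt82, 102.94 TPM for Prr9, 26.2 TPM for Crym, 28.08 TPM for Gprc5d, 248.85 TPM for Tchh, 25.76 TPM for Tchhl1 and 22.77 TPM for Krt26 in that library. The Krtap genes gave 287.85 TPM for Krtap8-1, 234.15 TPM for Krtap7-1, 105.11 TPM for Krtap22-2, 135.44 TPM for Krtap3-1, 50.3 TPM for Krtap3-2, 91.9 TPM for Krtap3-3, 49.63 TPM for Krtap16-3, 20.2 TPM for Krtap28-10, 17.63 TPM for Krtap28-13, 32.04 TPM for Krtap17-1, 51.46 TPM for Krtap9-3 and 47.99 TPM for Krtap4-1. Outside the set, knockout 3 stood apart with 27.41 TPM for Vsig8, 22.44 TPM for Ovol1, 16.31 TPM for Tyrp1, 15.5 TPM for Pmel and 80.26 TPM for Col1a1.

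In wild type 3 the class sums that stood apart from the other wild-type libraries were 7.93 TPM for cortex keratins and 15.3 TPM for trichohyalin group. Its single genes were 4.79 TPM for Krtap8-1, 3.07 TPM for Krtap3-1, 30.27 TPM for Krt71, 10.96 TPM for Tchh and 3.79 TPM for Padi3, and outside the set 55.57 TPM for Wnt10a and 388.11 TPM for Cidec. Wild type 1 stood apart with 237.65 TPM for Col1a1, 402.62 TPM for Col3a1 and 73.62 TPM for Lum. In 3 further cases the other 3 wild-type libraries were at 0, so any single count would have set the library apart and the screen says nothing: 0.26 TPM (2 counts) for Krtap16-3 and 0.28 TPM (4 counts) for Krtap28-13 in wild type 3, and 0.06 TPM (1 count) for Krtap28-10 in wild type 4. Leaving these out, 52 cases remain.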

How the results depend on the processing

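No paired analysis was possible because library numbers were given in record order and the labels give no litter, batch or day that would pair libraries. The number of genes called in the whole table, 110, was 27 with total count scaling, 994 with DESeq2's Wald test and 167 without knockout 3 and wild type 2 (chosen after seeing the data). Leaving out 1 library gave 8 to 170, with 170 without knockout 3, 8 without knockout 2, 14 without knockout 4, 19 without knockout 1, and 26, 32 and 27 without wild type 1, 3 and 4. The number of members called was 3 with DESeq2's Wald test and 0 without any 1 library. By summed TPM without the Krtap genes, wild type 3 took rank 2 and knockout 2 rank 3. The cause of these changes was not tested.

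The log2 fold change of Krt75 was −0.02 with total count scaling. Of 26 named members tested, 15 changed sign without some single library, 9 of them without knockout 3. The lowest and highest log2 fold changes on leaving out 1 library were as follows. Matrix regulators: Dlx3 −0.81 to 0.07, Hoxc13 −0.09 to 0.44, Lef1 −0.22 to 0.44, Msx1 −0.13 to 0.48 and Shh −0.82 to 0.37. Keratins: Krt75 −0.16 to 0.38, Krt83 −0.29 to 5.88, Krt71 −0.60 to 5.64, Krt25 −1.02 to 4.39, Krt27 −0.24 to 5.39, Krt32 −0.09 to 0.39, Krt35 −0.02 to 3.69 and Krt36 −0.20 to 0.98. Krtap genes: Krtap3-2 −1.0 to 0.5 and Krtap17-1 −0.77 to 1.48. Of 32 named context genes, 6 changed sign: Tyrp1 −0.32 to 1.29, Pmel −0.47 to 0.96, Dct −0.44 to 0.42, Lum −0.88 to 0.37, Tas1r3 −0.31 to 0.06 and Lpo −0.74 to 0.29. Lor was not called in 7 of the 8 fits without 1 library, all but that without knockout 3, nor with total count scaling, though its log2 fold change stayed between −1.63 and −1.35 on leaving out 1 library. Without the low count filter 91 members were tested, 0 were called and the lowest adjusted p was 0.153 (edgeR).

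Most Krtap genes had too few counts outside knockout 3 for any statement on genotype, and levels near the limit of 3 counts carry wide counting error.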

Other observations

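Among follicle genes outside the set, Lpar6, a lysophosphatidic acid receptor gene whose loss causes woolly hair, ranged from 2.01 to 2.60 TPM in wild type and 2.26 to 4.34 TPM in knockout. Its log2 fold change was 0.64 ± 0.17 (SE) and the adjusted p was 0.123 in edgeR and 0.0189 in DESeq2's Wald test, so only the latter called it. Krt17, a keratin of the outer root sheath, ranged from 638 to 1159 TPM in wild type and 390.1 to 764.6 TPM in knockout, with a log2 fold change of −0.64 ± 0.21 (SE) and an adjusted p of 0.175 in edgeR and 0.019 in DESeq2's Wald test. Edar, the receptor of the ectodysplasin pathway, was highest in knockout 3 at 1.5 TPM, against 0.18 to 0.53 TPM in the other libraries. Foxc1, a factor of bulge stem cells, reached 13.1 TPM in knockout 3 and 3.27 to 9.80 TPM elsewhere, while Lgr5, a marker of the lower bulge, was highest in knockout 2 at 11.7 TPM.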
